A study of Mus musculus with 28 samples.

Results

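Transcripts of 10 enzymes that build triglyceride were followed in mouse livers with 2 kinds of induced non-alcoholic steatohepatitis (NASH), in which fat builds up in the liver along with inflammation and fibrosis. The genes were picked by symbol, with earlier results of these data known. They were Gpam, Agpat9, Agpat2, Lpin1, Lpin2, Lpin3, Mogat1, Mogat2, Dgat1 and Dgat2, that is 10 of the 20416 genes in each of the 3 deposited tables. All livers came from male C57BL/6 mice, and messenger RNA was sequenced from stranded poly(A) libraries. The diet model compared 4 livers of mice on a methionine- and choline-deficient diet (MCD) with 4 livers of mice on the matched control diet (CD). The titles and the design text give that diet 4 weeks, and another label gives the study a length of 5 weeks. The STAM model compared 5 STAM with 5 control livers at 4 weeks of age and 5 STAM with 5 control livers at 10 weeks of age. STAM mice had streptozotocin, a toxin of insulin-producing cells, on postnatal day 2 and a high-fat diet once they were 4 weeks old, while control mice had a control diet. Streptozotocin and diet cannot be told apart in this design, the labels do not say whether controls had an injection, and how long the 4-week STAM livers had been exposed to the high-fat diet is not clear from the labels.

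Nothing in the labels ties each replicate to a mouse of its own, and the p-values then describe the spread among these libraries alone, part of which may be technical. Libraries held 16.2 to 25.9 M reads, and 3 reads in a library correspond to at most 0.200 counts per M reads (CPM). Levels are given as CPM, or as CPM per kilobase where different genes are set side by side. Differences are given on the log2 CPM scale of the deposited values, which carry a prior of 0.25 reads. Each table was tested alone with limma over 15312 genes, and calls were made where the two-sided p, adjusted by Benjamini-Hochberg, was under 0.05. The median log2 difference of all genes moved with the scaling. It was 0.07 for MCD, 0.01 for STAM at 4 weeks and 0.05 for STAM at 10 weeks as deposited, and 0.49, 0.09 and 0.33 when total reads set the scale. The share of called genes that were higher was 52.9%, 66.6% and 53.0% as deposited, 86.1%, 83.7% and 88.0% with total reads, and 49.8%, 59.8% and 45.7% after quantile normalization. Replicate 1 of the 4-week controls stood apart, since 16.4% of the genes tested lay more than 2-fold from the median of the other libraries of its group, against 7.97% to 12.5% in the other 27 libraries. Leaving it out changed no call of a member at 4 weeks or between ages, and the values it moved most are given with and without it.

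Triglyceride is made from glycerol 3-phosphate by 4 steps in the endoplasmic reticulum and on mitochondria. Glycerol-3-phosphate acyltransferases (GPAT, here Gpam and Agpat9) add the first fatty acid, a lysophosphatidate acyltransferase (Agpat2) adds the second, lipins (Lpin1, Lpin2, Lpin3) remove the phosphate to give diacylglycerol, and diacylglycerol acyltransferases (DGAT, here Dgat1 and Dgat2) add the last fatty acid. Monoacylglycerol acyltransferases (MGAT, here Mogat1 and Mogat2) reach diacylglycerol by another route, from monoacylglycerol, which is the main route in the small intestine. The liver uses these steps both to store fat in droplets and to load lipoprotein particles for export.

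All 10 transcripts passed the filter on low values in each table. In MCD livers 3 rose, 1 fell and 6 were not called, beside 22.6% of all genes higher, 20.1% lower and 42.7% in either direction. The risers were Agpat9, Mogat2 and Lpin3, and Dgat2 fell, a call that did not survive the other scalings. In STAM livers at 4 weeks 1 of 10 was called, Mogat2, which was higher, beside 6.52% of all genes higher, 3.27% lower and 9.8% in either direction. None of the 10 was called lower at that age in limma, and 1 had an unadjusted p under 0.05 in that direction; the voom version of limma on recovered reads also gave 0. In STAM livers at 10 weeks 6 rose (Agpat9, Lpin1, Lpin2, Lpin3, Mogat1 and Mogat2), 2 fell (Agpat2 and Dgat2) and 2 were not called, beside 25.3% of all genes higher, 22.5% lower and 47.8% in either direction. With a change of at least 1 on the log2 scale, 3 members were called in MCD, 1 in STAM at 4 weeks and 3 in STAM at 10 weeks, beside 17.2%, 3.13% and 14.2% of all genes. The median log2 difference of the 10 members was 0.18, 0.26 and 0.65 in these comparisons, against 0.07, 0.01 and 0.05 for all genes tested. The deposited table of the authors, with its own adjusted p under 0.05, had 3 members higher and 2 lower in MCD, 1 higher in STAM at 4 weeks, and 6 higher and 2 lower in STAM at 10 weeks.

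**Figure D1:**
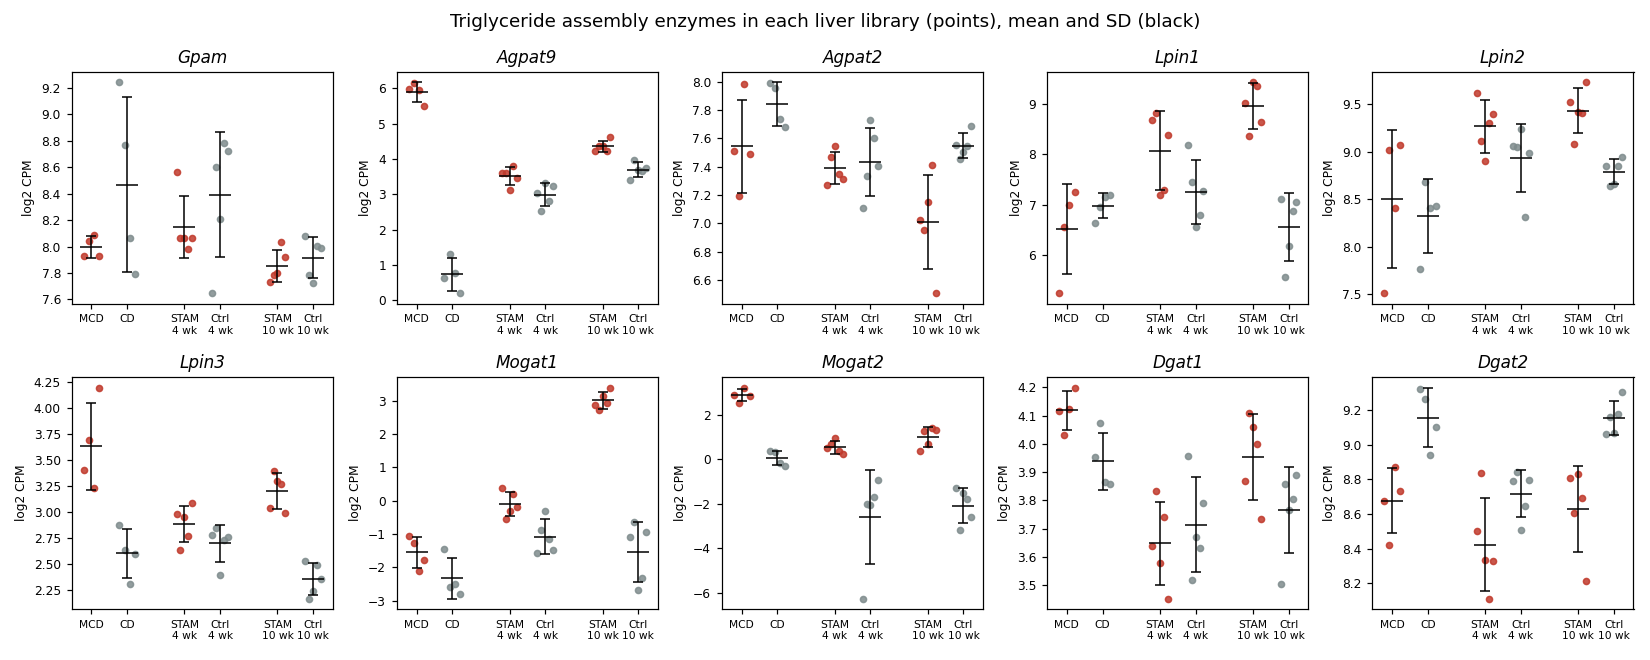
Level of each transcript in every library on the log2 CPM axis, with 1 panel per gene; points are libraries, black bars the mean and SD, and each disease group (red) stands left of its control group (grey). Agpat9 in MCD and Mogat1 in 10-week STAM livers lie far above their controls, and Mogat2 lies above its controls in all 3 pairs.

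Of the 2 GPAT members, Agpat9 rose in MCD and 10-week STAM livers and Gpam was not called. Agpat9 (chr5:100846229-100899102 on mm10, plus strand, 2877 counted bases) encodes the microsomal enzyme that RefSeq now calls Gpat3 and that is best known from fat cells. It had 63.1, 70.9, 61.7 and 45.1 CPM in MCD livers, against 1.52, 2.48, 1.71 and 1.13 CPM in CD livers. Every MCD library was above every CD library, with 1388 to 1761 reads in MCD livers against 17 to 48 in CD livers. The log2 difference was 5.16 (SE 0.22, limma adjusted p = 1.21e-08), which is 35.8-fold, and with 1 library left out it was 4.99 to 5.36. In STAM livers at 10 weeks Agpat9 had 18.7, 20.7, 20.8, 18.6 and 24.5 CPM, against 10.6, 15.7, 13.0, 12.8 and 13.3 CPM in controls. These groups did not overlap either, but the log2 difference was 0.66 (SE 0.11, limma adjusted p = 0.000276). At 4 weeks Agpat9 had 12.1, 12.1, 8.69, 13.8 and 10.99 CPM in STAM livers and 8.25, 5.78, 9.98, 7.05 and 9.49 CPM in controls. Those groups overlapped, and the log2 difference of 0.52 was not called (SE 0.16, limma adjusted p = 0.0638), although it was with total reads as the scale (0.60, adjusted p = 0.0388).

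Gpam (chr19:55069734-55099447, minus strand) encodes the GPAT of the mitochondrial outer membrane, a gene that insulin induces in liver, and was not called in any of the 3 comparisons. It had 244, 264, 273 and 243 CPM in MCD livers, against 606, 437, 268 and 222 CPM in CD livers. The MCD libraries lay close together and the CD libraries were spread wide, so the groups overlapped. The log2 difference was -0.47 (95% interval -1.09 to 0.14, limma adjusted p = 0.195). It was called without CD replicate 4, at -0.70 (adjusted p = 0.0294). The deposited table of the authors gave -0.58 with an adjusted p of 0.0455. In STAM livers the log2 difference was -0.24 at 4 weeks (limma adjusted p = 0.544; -0.43 and 0.0673 without control replicate 1) and -0.06 at 10 weeks (0.579); the sign at 10 weeks turned under quantile normalization (0.18, adjusted p = 0.147) and with total reads (0.23, adjusted p = 0.0433).

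Other GPAT transcripts are not part of the sums that follow, which cover Gpam and Agpat9 alone. Of these others, Agpat6, another microsomal GPAT, averaged 119 ± 7.90 CPM in MCD livers and 167 ± 21.8 in CD livers, where it fell by 0.48 on the log2 scale (limma adjusted p = 0.00274), a call lost with total reads and under quantile normalization, and 282 ± 52.3 CPM in 10-week STAM livers and 311 ± 27.8 in controls; it was named after its values were seen. Gpat2 averaged 3.47 CPM or less in every group. Per kilobase, the summed level of Gpam and Agpat9 was 87.7 ± 6.73 CPM per kb in MCD livers and 100.7 ± 45.8 in CD livers (SD, n = 4 each), and the groups overlapped. Agpat9 made up 23.7% ± 2.96 of that sum in MCD livers and 0.650% ± 0.222 in CD livers. Its share was 10.6% ± 1.24 in 10-week STAM livers and 6.78% ± 1.42 in controls (SD, n = 5 each), where the libraries ranged over 8.59% to 11.9% and 4.92% to 8.69%. At 4 weeks the share was 5.17% ± 1.13 in STAM livers and 3.29% ± 1.42 in controls. Gpam stayed the larger of the pair in every library, at 73.6% or more of the sum.

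Agpat9 had the largest difference of the 10 in MCD livers, Mogat1 had it in 10-week STAM livers, and Lpin1 differed in its response between the models. The 250 bases before the start of each are therefore shown, 5′ to 3′ on the gene's own strand, from RefSeq on GRCm38.p6. Capitals mark matches to any of 3 motifs searched on both strands, the nuclear receptor half-site AGGTCA, the E-box CACGTG and the ATF4 and C/EBP composite element TGATGNAA. The windows are chr5:100845979-100846228 (plus) for Agpat9, chr1:78510810-78511059 (plus) for Mogat1 and chr12:16610967-16611216 (minus) for Lpin1. The Lpin1 window belongs to a start 21196 bases from the start in the deposited table.
Agpat9: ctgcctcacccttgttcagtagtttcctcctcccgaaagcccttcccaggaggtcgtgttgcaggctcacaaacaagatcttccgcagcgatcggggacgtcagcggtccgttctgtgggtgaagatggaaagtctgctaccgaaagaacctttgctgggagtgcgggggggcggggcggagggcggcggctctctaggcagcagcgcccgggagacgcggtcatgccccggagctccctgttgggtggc
Mogat1: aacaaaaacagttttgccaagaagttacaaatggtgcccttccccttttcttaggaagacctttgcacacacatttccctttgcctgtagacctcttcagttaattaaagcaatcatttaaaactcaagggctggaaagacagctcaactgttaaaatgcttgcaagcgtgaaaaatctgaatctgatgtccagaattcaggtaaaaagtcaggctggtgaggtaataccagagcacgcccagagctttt
Lpin1: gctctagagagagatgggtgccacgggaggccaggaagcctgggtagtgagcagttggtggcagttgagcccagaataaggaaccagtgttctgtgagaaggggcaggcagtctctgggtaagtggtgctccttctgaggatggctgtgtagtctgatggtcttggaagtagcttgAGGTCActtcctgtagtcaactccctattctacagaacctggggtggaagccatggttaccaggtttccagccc
Lpin1 held 1 AGGTCA, 74 bases before its start, and neither Agpat9 nor Mogat1 had a match to any of the 3 motifs. Of 32851 windows of the same length, 14.0% held AGGTCA, 6.02% CACGTG and 3.45% TGATGNAA. Among the other members with a window, Gpam had an AGGTCA in 1 of its 2 windows and a TGATGNAA in the other, Lpin2 had a CACGTG and a TGATGNAA in 2 of its 3 windows, and Agpat2 and Lpin3 had no match. RefSeq windows were found for 7 of the 10 members, the others being Mogat2, Dgat1 and Dgat2. A match is a description of letters and says nothing of binding.

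Agpat2 (chr2:26593057-26604417, minus strand), whose loss in people and mice causes lipodystrophy, fell in STAM livers at 10 weeks. It had 130.2, 124, 142, 170.0 and 91.0 CPM in STAM livers, against 188, 175, 182, 186 and 207 CPM in controls. All STAM libraries were below all control libraries, and STAM replicate 5 was the lowest. The log2 difference was -0.54 (SE 0.13, limma adjusted p = 0.00435). The call was lost under quantile normalization (-0.34, adjusted p = 0.0593) and with total reads as the scale (-0.25, adjusted p = 0.103). In MCD livers Agpat2 had a log2 difference of -0.30 (limma adjusted p = 0.128) that turned to 0.03 and 0.13 under those scalings, and at 4 weeks it had -0.05 (0.852), which turned to 0.01 and 0.03 and was -0.13 (0.410) without control replicate 1.

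All 3 lipins rose in 10-week STAM livers, Lpin3 rose in MCD livers, and none was called at 4 weeks. Lpin1 (chr12:16535669-16589770, minus strand), the lipin missing in fatty liver dystrophy mice and a gene that fasting and glucocorticoids induce in liver, had 515, 328, 689, 657 and 402 CPM in STAM livers at 10 weeks, against 138, 47.0, 72.2, 118 and 132 CPM in controls. The lowest STAM library was more than 2-fold above the highest control library, and the log2 difference was 2.41 (SE 0.34, limma adjusted p = 0.000389), which is 5.31-fold. At 4 weeks Lpin1 had 412, 454, 146, 155 and 332 CPM in STAM livers and 292, 174, 94.3, 110.4 and 154 CPM in controls. Both groups were spread wide and overlapped, and the log2 difference of 0.82 was not called (95% interval -0.15 to 1.80, limma adjusted p = 0.290; 1.06 and 0.151 without control replicate 1). In MCD livers Lpin1 had 37.7, 93.8, 127 and 153 CPM, against 98.9, 124, 142 and 146 CPM in CD livers. MCD replicate 1 stood lowest, the groups overlapped, and the log2 difference was -0.47 (95% interval -1.46 to 0.51, limma adjusted p = 0.405).

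Lpin2 (chr17:71183978-71249818, plus strand), the lipin with the most liver transcript in every group here, rose in STAM livers at 10 weeks. It had 738, 541, 682, 679 and 849 CPM in STAM livers, against 461, 399, 406, 462 and 491 CPM in controls. The groups did not overlap, and the log2 difference was 0.64 (SE 0.11, limma adjusted p = 0.000434). At 4 weeks Lpin2 had a log2 difference of 0.34 (limma adjusted p = 0.276). In MCD livers it had 182, 518, 339.8 and 539 CPM, against 218, 411, 339 and 344 CPM in CD livers, and the difference of 0.18 was not called (limma adjusted p = 0.715). MCD replicate 1 was lowest of the MCD libraries for both Lpin1 and Lpin2.

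Lpin3 (chr2:160880670-160906000, plus strand), the least abundant lipin, rose in MCD and in 10-week STAM livers. In MCD livers it had 10.6, 12.9, 9.39 and 18.3 CPM, against 7.31, 6.202, 4.91 and 6.01 CPM in CD livers. MCD replicate 4 was the highest and all MCD libraries were above all CD libraries, with a log2 difference of 1.03 (SE 0.20, limma adjusted p = 0.00136). In STAM livers at 10 weeks Lpin3 had 8.21, 10.5, 9.85, 9.65 and 7.94 CPM, against 5.74, 4.47, 4.69, 5.58 and 5.08 CPM in controls. Again there was no overlap, and the log2 difference was 0.85 (SE 0.12, limma adjusted p = 8.26e-05). At 4 weeks the STAM livers had 6.19 to 8.45 CPM and controls 5.22 to 7.15 CPM, with a log2 difference of 0.18 (limma adjusted p = 0.409).

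Summed per kilobase, lipin transcripts reached 219 ± 35.7 CPM per kb in 10-week STAM livers and 98.3 ± 14.1 in controls (SD, n = 5 each). The lowest STAM sum, 158, was above the highest control sum, 112. Lpin1 made up 41.8% ± 7.64 of the sum in 10-week STAM livers and 17.9% ± 5.11 in controls, while the share of Lpin2 was 56.9% ± 7.58 and 80.5% ± 5.05. At 4 weeks the lipin sum was 167 ± 39.8 CPM per kb in STAM livers and 119.8 ± 26.0 in controls, and in the diet table it was 92.1 ± 37.7 in MCD livers and 82.8 ± 16.8 in CD livers (n = 4 each). Both of these pairs overlapped. Despite its rise, Lpin3 stayed at 7.24% or less of the lipin sum in every library.

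**Figure D2:**
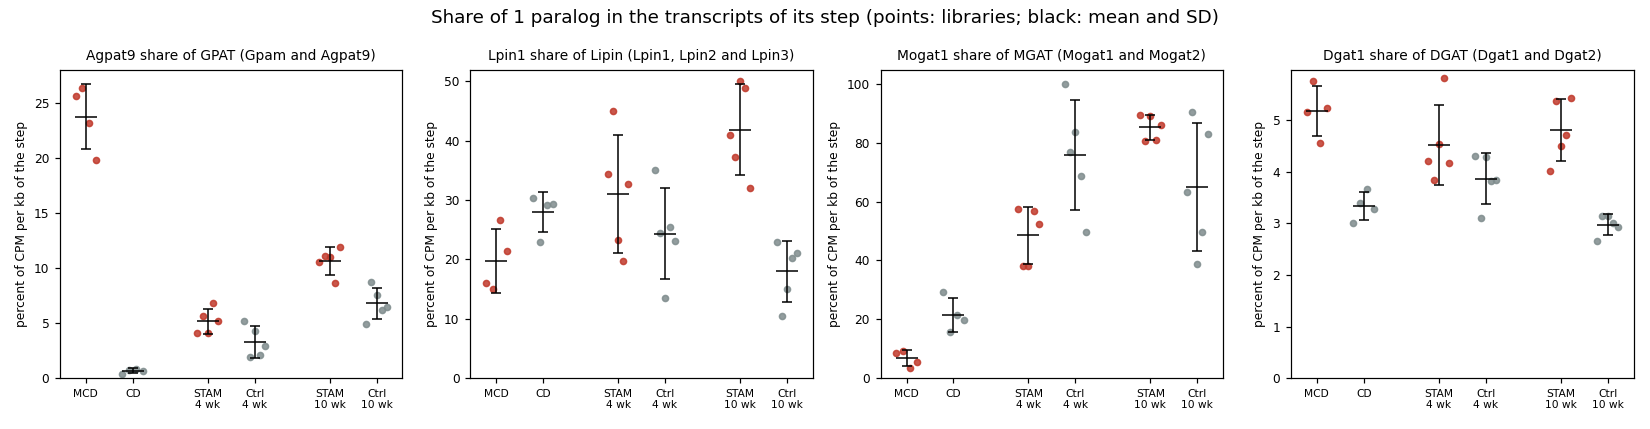
Share of 1 enzyme in the summed CPM per kb of the members of its step (percent, per library). The GPAT sum covers Gpam and Agpat9 alone and leaves out other GPAT transcripts. Black bars are mean and SD, disease groups are red and control groups grey. The Agpat9 share in MCD livers (19.8% to 26.4%) stands far above that in CD livers, the Lpin1 share in 10-week STAM livers (32.0% to 49.96%) lies above that in controls (10.5% to 22.9%), and the Mogat1 share in MCD livers is below that in CD livers.

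Both MGAT transcripts were scarce in control livers, and Mogat2 was the only member called in all 3 comparisons. Mogat2 (chr7:99219084-99238611, minus strand) encodes the MGAT that dominates in the intestine of mice. It had 7.43, 5.80, 9.25 and 7.10 CPM in MCD livers, against 1.27, 1.24, 0.883 and 0.801 CPM in CD livers. The groups were widely separated, with 144 to 226 reads in MCD livers and 12 to 25 in CD livers, and the log2 difference was 2.81 (SE 0.23, limma adjusted p = 1.36e-06), which is 7.03-fold.

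At 10 weeks Mogat2 had 1.27, 2.36, 1.62, 2.62 and 2.48 CPM in STAM livers, against 0.396, 0.0971, 0.335, 0.281 and 0.152 CPM in controls. The control values rest on 2 to 7 reads per library and the STAM values on 31 to 58, and the groups did not overlap. On the log2 scale the difference was 3.08 (SE 0.39, limma adjusted p = 4.1e-05), which is 8.47-fold, and the ratio of mean CPM was 8.20. Quantile normalization gave 2.25, the smallest of the settings other than those that leave out a library, and a prior of 2 reads gave 2.67.

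At 4 weeks Mogat2 had 1.39, 1.60, 1.91, 1.27 and 1.15 CPM in STAM livers, against 0, 0.238, 0.229, 0.292 and 0.515 CPM in controls. The control libraries held 0, 4, 4, 6 and 9 reads, and every STAM library was higher, with 24 to 43 reads. The library at 0 reads was control replicate 1, the one that stood apart. The log2 difference was 3.12 (SE 0.82, limma adjusted p = 0.0350) with it and 2.21 (adjusted p = 0.000643) without it, and the ratio of mean CPM was 5.74. The call was lost under quantile normalization (adjusted p = 0.0536) and without 7 of the other 9 libraries in turn (control replicates 2 and 3 and each STAM replicate, 0.0566 to 0.0733). It held with a prior of 2 reads (2.31, adjusted p = 0.00281) and with voom on recovered reads (2.78, adjusted p = 0.00458).

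Mogat1 (chr1:78511060-78538173, plus strand), which encodes the other MGAT, rose in STAM livers at 10 weeks. It had 7.39, 6.64, 8.86, 7.62 and 10.5 CPM in STAM livers, against 0.462, 0.631, 0.144, 0.188 and 0.508 CPM in controls. Every STAM library was far above every control library, with 146 to 246 reads in STAM livers and 3 to 13 in controls. The log2 difference was 4.55 (SE 0.36, limma adjusted p = 1.26e-06), which is 23.5-fold, and the ratio of mean CPM was 21.2. At 4 weeks Mogat1 had 1.28, 0.671, 0.798, 1.13 and 0.864 CPM in STAM livers and 0.322, 0.536, 0.803, 0.437 and 0.343 CPM in controls. Control replicate 3 reached into the STAM range, and the log2 difference of 0.98 was not called (SE 0.32, limma adjusted p = 0.0726), although it was without that library (1.17, adjusted p = 0.0333). In MCD livers Mogat1 had 0.472, 0.403, 0.222 and 0.283 CPM, against 0.356, 0.155, 0.166 and 0.134 CPM in CD livers. These values rest on 5 to 12 reads in MCD livers and 2 to 7 in CD livers, and the log2 difference of 0.78 had a 95% interval of -0.26 to 1.83 (limma adjusted p = 0.208).

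Mogat2 made up most of the MGAT transcript in MCD livers and Mogat1 in 10-week STAM livers. Summed per kilobase, MGAT transcripts had 4.46 ± 0.750 CPM per kb in MCD livers and 0.760 ± 0.202 in CD livers (SD, n = 4 each). They had 1.61 ± 0.197 CPM per kb in STAM livers and 0.549 ± 0.188 in controls at 4 weeks, and 7.97 ± 1.34 in STAM livers and 0.463 ± 0.143 in controls at 10 weeks (SD, n = 5 each). None of these 3 pairs overlapped. Mogat1 made up 6.68% ± 2.71 of the sum in MCD livers and 21.5% ± 5.71 in CD livers. It made up 48.6% ± 9.74 in STAM livers and 75.8% ± 18.6 in controls at 4 weeks, and 85.2% ± 4.29 in STAM livers and 65.0% ± 21.9 in controls at 10 weeks. The shares in controls rest on few reads and overlapped those of STAM livers at both ages.

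Dgat2 (chr7:99153663-99182713, minus strand), the DGAT that takes up newly made fatty acids in liver and the member with the highest mean per kilobase in all 6 groups, was lower in both models as deposited. In MCD livers it had 409, 343, 468 and 425 CPM, against 640, 614, 491 and 549 CPM in CD livers. All MCD libraries were below all CD libraries, and the log2 difference was -0.48 (SE 0.12, limma adjusted p = 0.00711). The direction did not hold: it was 0.13 under quantile normalization (adjusted p = 0.430) and -0.06 with total reads (adjusted p = 0.702). At 10 weeks Dgat2 had 447, 389.7, 455, 413 and 297 CPM in STAM livers, against 534, 572, 535, 577 and 630 CPM in controls. The groups did not overlap, with STAM replicate 5 lowest, and the log2 difference was -0.52 (SE 0.11, limma adjusted p = 0.00173). That call was kept under quantile normalization and lost with total reads (-0.23, adjusted p = 0.0602). At 4 weeks Dgat2 had a log2 difference of -0.29 (limma adjusted p = 0.153). As deposited, hepatocyte markers were also lower in both models (6 of 7 in MCD and 7 of 7 in 10-week STAM livers), and their part in the Dgat2 and Agpat2 differences was not tested.

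Dgat1 (chr15:76502015-76511818, minus strand), the other DGAT, was not called as deposited in any comparison. It had 16.4 to 18.4 CPM in MCD livers and 14.5 to 16.8 in CD livers, with a log2 difference of 0.18 (95% interval -0.05 to 0.41, limma adjusted p = 0.191). In STAM livers the log2 difference was -0.07 at 4 weeks (limma adjusted p = 0.774; 0.01 with total reads) and 0.19 at 10 weeks (limma adjusted p = 0.126). With total reads as the scale Dgat1 was called higher in MCD (0.60, adjusted p = 0.000808) and in STAM livers at 10 weeks (0.48, adjusted p = 0.00170). The scale cancels in the ratio of both genes within a library. Dgat1 made up 5.18% ± 0.490 of the DGAT sum in MCD livers and 3.34% ± 0.272 in CD livers, and 4.81% ± 0.599 in 10-week STAM livers and 2.98% ± 0.205 in controls, with no overlap in either pair. At 4 weeks its share was 4.52% ± 0.771 in STAM livers and 3.87% ± 0.490 in controls, and those libraries overlapped. Dgat2 and Mogat2 are neighbours on the same strand of chromosome 7, 36.4 kb apart with 0 genes of the table between them, and in MCD and 10-week STAM livers Mogat2 was higher while Dgat2 was lower as deposited (the direction of Dgat2 in MCD turned under quantile normalization). No member overlaps another gene of the table.

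**Figure D3:**
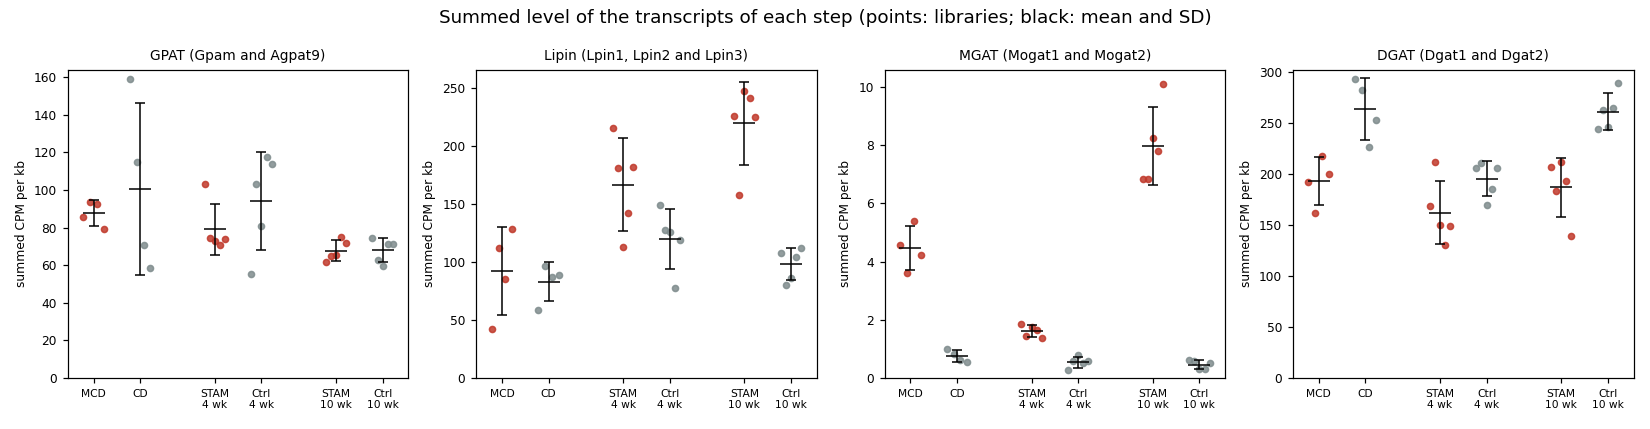
Summed CPM per kb of the member transcripts of each step in every library (points), with mean and SD in black, disease groups in red and control groups in grey. The GPAT sum covers Gpam and Agpat9 alone. Lipin sums in 10-week STAM livers and MGAT sums in MCD, 4-week STAM and 10-week STAM livers lie above all their controls, whereas DGAT sums in MCD and 10-week STAM livers lie below theirs on the deposited scale (for Dgat2, which makes up most of that sum, the MCD difference turned to 0.13 under quantile normalization).

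**Figure D4:**
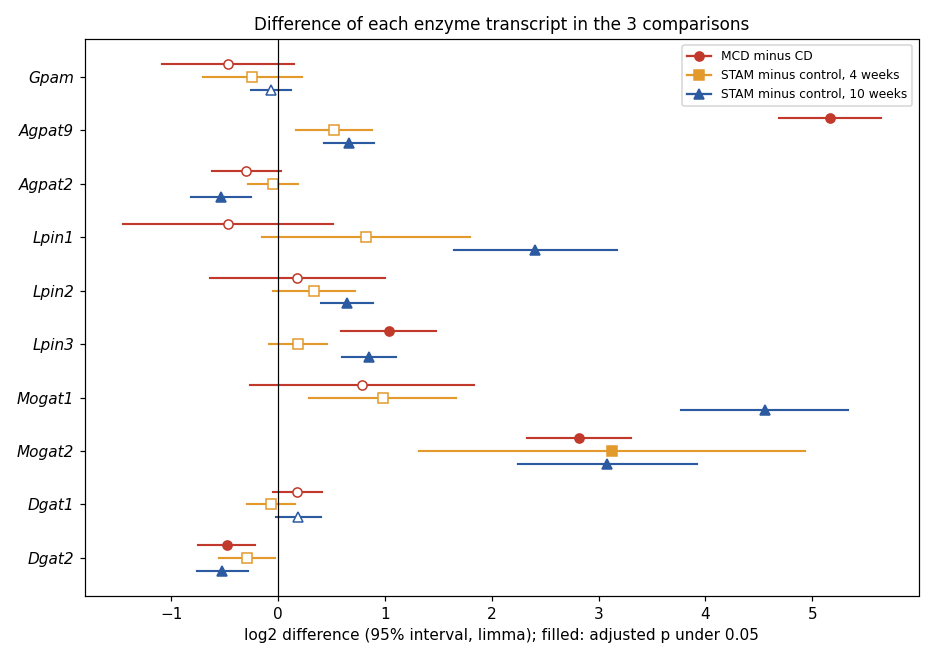
Log2 difference of each transcript with its 95% limma interval; circles are MCD minus CD, squares 4-week STAM minus control and triangles 10-week STAM minus control, and filled symbols mark an adjusted p under 0.05. Mogat2 is filled in all 3 comparisons, Agpat9 reaches 5.16 in MCD, and Mogat1 reaches 4.55 in 10-week STAM livers; the filled Dgat2 symbol of MCD turned to 0.13 under quantile normalization.

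Whether the effects differ between ages or models was tested directly, as a difference of log2 differences. Between 10 and 4 weeks, 2 of 10 STAM effects were larger at 10 weeks, beside 8.89% of 15022 genes with a larger value at 10 weeks, 11.2% with a smaller one and 20% in either direction. The Mogat1 effect was 4.55 at 10 weeks and 0.98 at 4 weeks, a difference of 3.57 (SE 0.49, limma adjusted p = 8.08e-05). For Lpin3 the effects were 0.85 and 0.18, a difference of 0.66 (SE 0.17, adjusted p = 0.00771) that lost its call under quantile normalization (adjusted p = 0.0564). For Lpin1 they were 2.41 and 0.82, and the difference of 1.58 missed the threshold (95% interval 0.40 to 2.77, limma adjusted p = 0.0559); it passed under quantile normalization (adjusted p = 0.0377), with total reads (0.0249) and without any 1 of 5 libraries, and without 4-week control replicate 1 it was 1.35 (adjusted p = 0.0826). Agpat2 also missed it, at -0.49 (adjusted p = 0.0558). For Mogat2 the difference was -0.04, with an interval of -2.02 to 1.93 that leaves a wide range, and without 4-week control replicate 1 it was 0.88 (adjusted p = 0.219). None of the 10 differences between ages was called lower in limma, where 1 had an unadjusted p under 0.05 in that direction, and the voom version gave 0.

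Between the models, MCD effects minus 10-week STAM effects were called for 3 of 10 members. These were 1 with a larger value in MCD and 2 with a smaller one, beside 12.9%, 15% and, in either direction, 27.9% of 14986 genes. Agpat9 was 4.50 higher in the MCD effect (SE 0.25, limma adjusted p = 3.11e-10). Mogat1 had a difference of -3.77 (SE 0.57, adjusted p = 6.37e-05) and Lpin1 of -2.88 (SE 0.56, adjusted p = 0.00144), so that both effects were larger in 10-week STAM livers. For Mogat2 the difference was -0.27 (95% interval -1.27 to 0.73) and for Dgat2 0.04 (95% interval -0.31 to 0.39), neither called. The models differ in diet and drug and may differ in age, since no age of the MCD and CD mice is given here. Diet, drug and age cannot be told apart, and MCD was not tested against the 4-week STAM effect.

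**Figure D5:**
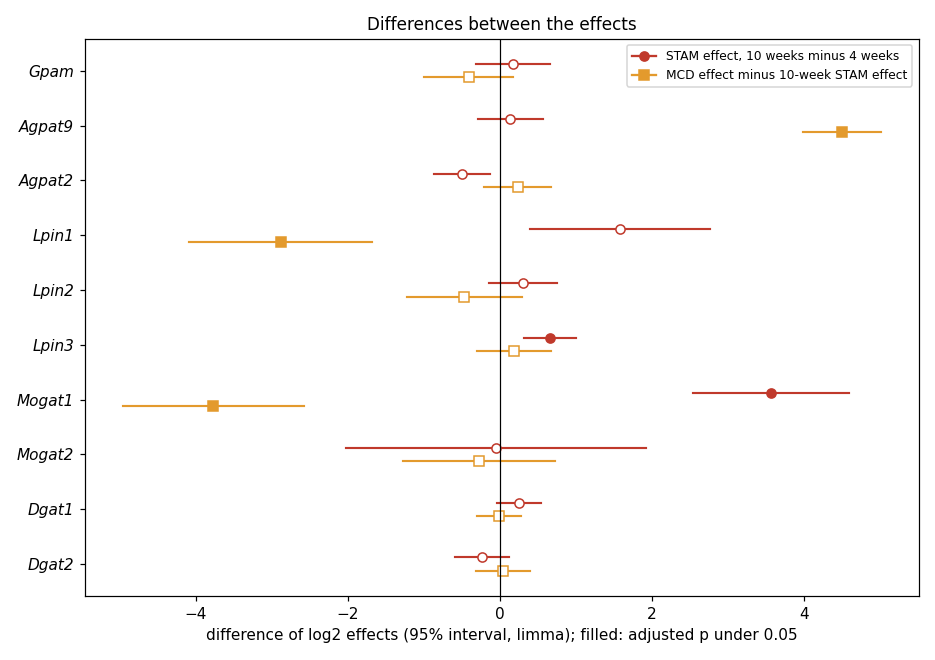
Difference of log2 effects for each transcript with its 95% limma interval; circles are the 10-week minus the 4-week STAM effect, squares the MCD effect minus the 10-week STAM effect, and filled symbols mark an adjusted p under 0.05. Agpat9 stands at 4.50 and Mogat1 at -3.77 among the squares, while Mogat1 at 3.57 and Lpin3 at 0.66 are the filled circles.

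Set in order of mean level per kilobase within a group, Dgat2 came the first and Agpat2 the second in all 3 control groups, although Agpat2 overlapped Gpam, the third, in CD and 4-week control livers. In CD livers Agpat9, at 0.595 ± 0.197 CPM per kb, came the eighth and overlapped Mogat2, at 0.592 ± 0.136. In MCD livers Agpat9 was the fifth, at 20.9 ± 3.77, and overlapped Lpin1, at 18.4 ± 8.89. In 10-week STAM livers Lpin1 was the third, at 92.9 ± 28.1 CPM per kb, and did not separate from Lpin2 above it or Agpat2 below it, whereas in 10-week controls it was the fifth at 18.2 ± 7.16. Mogat1 was the eighth in 10-week STAM livers, at 6.80 ± 1.25, and overlapped Agpat9 above it, at 7.18 ± 0.831.

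Of 12 genes that supply glycerol 3-phosphate and acyl-CoA, 2 rose and 7 fell in MCD livers (4 and 6 with total reads or quantile normalization), in STAM livers 0 rose and 1 fell at 4 weeks (3 had an unadjusted p under 0.05), and at 10 weeks 2 rose and 3 fell. Under total reads the 10-week counts were 6 higher and 1 lower, and under quantile normalization 6 and 2. Slc27a5, which activates bile acids and long-chain fatty acids, averaged 225 ± 39.7 CPM in MCD livers and 1139 ± 80.4 in CD livers (log2 difference -2.35, limma adjusted p = 6.29e-08). Acsl1 and Acsl5, both long-chain acyl-CoA synthetases, fell in MCD by 1.07 and 1.27 on the log2 scale. Acsl6, another of them, had 0 reads in every MCD library and 0.508 ± 0.101 CPM in CD livers.

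Among 12 tested genes of other acyltransferases and phosphatases of the pathway, 5 rose and 1 fell in MCD livers, and 4 rose in 10-week STAM livers (8 and 0 in MCD and 9 and 0 at 10 weeks with total reads, 6 and 1 and 4 and 0 under quantile normalization). None of the 12 was called at 4 weeks in limma, and 0 had an unadjusted p under 0.05. Ppap2c, a lipid phosphatase of the plasma membrane, averaged 47.6 ± 10.6 CPM in MCD livers and 20.7 ± 1.69 in CD livers (log2 difference 1.18, limma adjusted p = 3.76e-05). Awat2, a wax synthase of the Dgat2 family, rose by 1.10 on the log2 scale in MCD livers, to 3.30 ± 0.484 CPM against 1.53 ± 0.164 in CD livers.

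Of 15 genes that use phosphatidate or diacylglycerol for other lipids or for signalling, 1 rose and 5 fell in MCD livers (6 and 4 with total reads). In STAM livers 1 fell at 4 weeks, and 7 rose and 3 fell at 10 weeks. With total reads 1 rose and 0 fell at 4 weeks, and 10 rose and 1 fell at 10 weeks. Under quantile normalization the counts were 1 and 5 in MCD, 1 and 1 at 4 weeks and 6 and 2 at 10 weeks. Mgll, which breaks down monoacylglycerol, the substrate of MGAT, fell in MCD livers by 1.04 on the log2 scale (limma adjusted p = 3.12e-05), with 97.7 ± 11.1 CPM in MCD livers and 202 ± 33.4 in CD livers. In 10-week STAM livers Mgll was higher instead, by 0.47 (limma adjusted p = 0.00144), with 409 ± 33.3 CPM against 296 ± 38.3 in controls. Dgkh and Dgkg, kinases that turn diacylglycerol back to phosphatidate, rose in 10-week STAM livers. Dgkh averaged 2.29 ± 0.748 CPM in STAM livers and 0.810 ± 0.407 in controls (log2 difference 1.54, limma adjusted p = 0.00246), which was not called after quantile normalization (adjusted p = 0.0728). Dgkg was near the detection limit at 0.320 ± 0.185 CPM in STAM livers and 0.0290 ± 0.0434 in controls.

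Of 8 partners of lipins, droplet budding and export, 1 rose and 1 fell in MCD livers, 1 rose at 4 weeks, and 2 rose and 1 fell at 10 weeks. With total reads these counts were 5 and 1 in MCD, 2 and 0 at 4 weeks and 6 and 0 at 10 weeks, and under quantile normalization the 10-week counts were 1 and 0. Mttp, which loads triglyceride onto lipoproteins, fell in MCD livers by 1.01 on the log2 scale (limma adjusted p = 1.74e-05), with 333 ± 42.2 CPM in MCD livers and 668 ± 31.1 in CD livers. Fitm2, a protein of lipid droplet formation, was named after its values were seen because it rose in each of the 3 comparisons, by 0.82, 0.32 and 0.70.

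Transcription factors and cofactors that act on these enzymes numbered 17. In MCD livers 1 rose and 9 fell (2 and 5 with total reads, 2 and 6 under quantile normalization). In STAM livers 1 rose and 2 fell at 4 weeks. At 10 weeks 3 rose and 6 fell (7 and 3 with total reads, 6 and 4 under quantile normalization). Pparg, a regulator of fat storage genes that controls Mogat1 in mouse liver, averaged 12.9 ± 1.66 CPM in MCD livers and 1.49 ± 0.738 in CD livers (log2 difference 3.30, limma adjusted p = 8.74e-05). At 10 weeks it averaged 20.9 ± 2.53 CPM in STAM livers and 14.9 ± 2.75 in controls (0.50, adjusted p = 0.00543). Srebf1, the regulator of fatty acid synthesis that insulin induces, fell in MCD livers by 1.41 (adjusted p = 0.0174), a call lost with total reads (0.0551). In 4-week STAM livers Srebf1 had a log2 difference of -0.87 (limma adjusted p = 0.0130), called with total reads and quantile normalization too. At 10 weeks Srebf1 was not called (-0.34, limma adjusted p = 0.124). Insig1, which holds back that regulator, fell by 1.47 in MCD livers and by 1.63 in 10-week STAM livers.

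Of 10 genes of the response to fasting and low insulin, 3 rose and 2 fell in MCD livers (4 and 1 with total reads or quantile normalization). In STAM livers 1 rose at 4 weeks (2 with total reads). At 10 weeks 8 rose and 1 fell (9 and 1 with total reads). Their part in the differences of the 10 enzymes was not tested. Igfbp1, which insulin represses, averaged 297 ± 82.4 CPM in 10-week STAM livers and 28.6 ± 12.6 in controls, a log2 difference of 3.43 (limma adjusted p = 1.47e-05). In MCD livers Fgf21, a fasting hormone, rose by 4.24 and Igfbp1 by 2.54. Fgf21 also rose in 10-week STAM livers, by 3.66 (limma adjusted p = 0.00187). Of 15 clock genes, 1 rose and 5 fell in MCD livers and 3 rose and 5 fell at 10 weeks. With total reads these counts were 2 and 2 in MCD and 6 and 4 at 10 weeks. Under quantile normalization they were 1 and 4 in MCD and 3 and 4 at 10 weeks. At 4 weeks limma called none, and 0 had an unadjusted p under 0.05. The labels give no hour of collection.

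These were whole livers, in which fewer cells of a type and less RNA per cell cannot be told apart. Hepatocyte markers were abundant in every library, as the tissue label has it, and 6 of 7 fell in MCD, 1 of 7 at 4 weeks and 7 of 7 at 10 weeks (1, 0 and 2 under quantile normalization). Their summed level was 74002 to 98139 CPM in MCD livers against 98741 to 118502 in CD livers, and 51792 to 66402 CPM in 10-week STAM livers against 89677 to 116873 in controls. Macrophage markers rose in 5, 5 and 7 of 7, and their summed level was 314 to 609 CPM in MCD livers against 149 to 253 in CD livers, and 249.5 to 338 CPM in 10-week STAM livers against 161 to 220 in controls. Cholangiocyte markers rose in 3, 2 and 3 of 4 and stellate markers in 4, 0 and 3 of 5, with 1 stellate marker lower at each STAM age. Under quantile normalization 0, 2 and 0 cholangiocyte and 4, 0 and 2 stellate markers were higher. Endothelial markers had 0, 0 and 2 of 4 higher and 1, 2 and 0 lower, and 1 of 2 tested acinar markers fell in MCD livers. The part of these cell types in the differences of the 10 enzymes was not tested.

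Agpat9 is known from fat cells and Mogat2 from intestine, and markers of both tissues were looked at. Of 5 adipocyte markers, Adipoq, Plin1 and Lep averaged 0.482 CPM or less in every group. Cfd averaged 0.219 CPM in MCD livers and 0.243 in CD livers, and 10.9 ± 8.69 CPM in 10-week STAM livers and 2.97 ± 2.15 in controls, where the log2 difference of 1.32 was not called (limma adjusted p = 0.334). Lipe, which hepatocytes also express, averaged 31.8 ± 6.15 CPM in 10-week STAM livers and 20.1 ± 5.10 in controls and was the only one called (0.68, limma adjusted p = 0.00632). For enterocytes, Sis had 0 reads in all 28 libraries and Alpi, Lct and Fabp6 averaged 0.110 CPM or less in every group. Fabp2, which averaged 42.0 to 129.9 CPM over the groups, and Vil1, at 1.30 CPM or less, rose in 10-week STAM livers, and Vil1 rose in MCD livers.

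Mogat2 had the largest sum of absolute log2 differences over the 3 comparisons, 9.02. The 5 genes whose values followed it most closely over all 28 libraries, as the root mean square difference of log2 values from the mean of the controls, were Ifi27l2b (0.586), Bcl2l14 (0.754), Atp6v0e2 (0.758), Phlda3 (0.811) and Cdkn1a (0.830), out of 14848 genes. Their log2 differences were 1.51 to 3.13 in MCD, 2.34 to 2.62 in STAM livers at 4 weeks and 2.96 to 3.78 at 10 weeks, against 2.81, 3.12 and 3.08 for Mogat2. In 4-week control replicate 1 Mogat2 had 0 reads and stood at -6.25 log2 CPM, with the next control library at -2.04. That library therefore weighs heavily on which genes are listed, and the list was not drawn again without it.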

How the data were processed

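In all, 28 liver samples were sequenced as stranded poly(A) libraries with both ends read, per the labels' protocols. The submitters' processing notes name STAR 2.4.2a and the mm10 build. For the read counter and the authors' test, the sources used here give no name. Each of the 28 sample columns deposited by the authors held log2 CPM, scaled within its table with a prior of 0.25 reads; this reading rests on the values, since 100% of them gave whole reads within 0.05 reads. The deposited tables also held the authors' log2 fold changes, their p-values and adjusted p-values, and a counted gene length in bases, used here for levels per kilobase. Scaling factors recovered from the values were 0.832 to 1.23.

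The plan held a count test in case of raw counts. As the deposited unit was log2, limma 3.58.1 (R 4.3.3, statmod 1.5.0; mean-variance trend, robust) was fitted to the log2 values of each table alone, on the 15312 genes whose mean value passed the 25th percentile, with Benjamini-Hochberg adjustment over all of them and a threshold of 0.05. Differences of effects came from 1 fit over 4 groups. The fit was tested on simulated data. Alternatives were a prior of 2 reads, no filter, scaling by total reads, quantile normalization, voom on recovered reads, the replicate number as a block, and leaving out each library.

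Sample groups and replicate numbers came from the titles. The members and gene lists were chosen with earlier results of these data known. All 10 members are named. A gene of another list is named where it was called with an absolute log2 difference of at least 1, at most 4 per list and comparison; 1 gene that met this rule is not reported here. The genes nearest to the member with the largest summed difference are also named. Gene starts are the deposited ones plus 1. No molecular identifiers are mentioned for the reads, and the limit of 3 reads covers counting error only. Python 3.11.15 drew the figures with matplotlib 3.10.9.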

Additional observations from a re-analysis of the deposited data

Results flagged for a closer look

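In groups of 4 or 5 libraries, the highest or lowest value of a member lay apart from its group in 4 of 60 cases, where chance gives about 1 in 20. Gpam was 8.56 log2 CPM in 4-week STAM replicate 1, with the next library at 8.07. Lpin2 was 8.31 log2 CPM in 4-week control replicate 4, with the next at 8.98. Lpin3 was 2.39 log2 CPM in 4-week control replicate 3, with the next at 2.73. Mogat2 was -6.25 log2 CPM in 4-week control replicate 1, which held 0 reads, with the next at -2.04.

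Effects of 2 groups differed, by a test of the difference itself in limma, for 5 values. The STAM effect at 10 weeks minus that at 4 weeks was 3.57 for Mogat1 (SE 0.49, adjusted p = 8.08e-05) and 0.66 for Lpin3 (SE 0.17, adjusted p = 0.00771). The MCD effect minus the 10-week STAM effect was 4.50 for Agpat9, -3.77 for Mogat1 and -2.88 for Lpin1.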

How the results depend on the processing

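Over 960 values of members under alternative settings, 886 kept their direction and their side of the threshold, 37 changed sign, 23 passed the threshold that they had missed and 14 lost it; the causes were not tested. The counts of called members moved as follows. In MCD 0 were lower under quantile normalization and with total reads, against 1 as deposited, and 1 to 2 with a library left out (2 without CD replicate 4 or MCD replicate 3). In STAM livers at 4 weeks 0 were higher under quantile normalization and 2 with total reads, against 1, with 0 to 2 higher (0 without control replicate 2 or STAM replicate 1, 2, 4 or 5, and 2 without control replicate 3) and 0 to 1 lower when a library was left out. At 10 weeks 1 was lower under quantile normalization and 0 with total reads, against 2. With total reads 4 were higher in MCD, against 3, and 8 at 10 weeks, against 6. Between ages 4 effects were larger at 10 weeks with total reads, against 2, and 0 to 1 smaller with a library left out.

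Signs that turned were those of Agpat2 in MCD (0.028 quantile, 0.13 total reads) and at 4 weeks (0.014 and 0.032), Dgat2 in MCD (0.13 quantile), Gpam at 10 weeks (0.18 quantile, 0.23 total reads) and Dgat1 at 4 weeks (0.012 total reads). Between models they were those of Dgat1 (0.028 quantile, 0.12 total reads, 0.0034 voom) and Mogat2 (0.050 prior of 2 reads, 0.17 quantile), and between ages that of Mogat2 (0.36 prior of 2 reads, 0.18 total reads, 0.22 voom). With a library left out the ranges that crossed 0 were -0.13 to 0.027 for Agpat2 at 4 weeks, -0.010 to 0.51 for Lpin2 in MCD, and, between models, -0.064 to 0.055 for Dgat1, -0.061 to 0.13 for Dgat2, -0.0051 to 0.32 for Lpin3 and -0.46 to 0.011 for Mogat2; between ages it was -0.46 to 0.88 for Mogat2.

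Same-numbered libraries did not deviate together (correlations of -0.12 to 0.008), so the numbers are not taken as pairs. With the replicate block the counts of called members were 3 higher and 1 lower in MCD; at 4 weeks Mogat2 missed the threshold (3.12, adjusted p = 0.0514) while Lpin1 passed it (0.82, adjusted p = 0.0145), and between ages Lpin1 passed it (1.58, adjusted p = 0.00845). Depth limits Mogat1 and Mogat2, which had 0 to 25 reads per control library.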
